A study of Homo sapiens with 12 samples.

Results

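The control of entry into S phase was followed here through 10 genes: the cyclin-dependent kinases CDK2, CDK4 and CDK6, the kinase inhibitors CDKN1B and CDKN2C, the pocket proteins RB1 and RBL1, and the transcription factors E2F1, E2F7 and E2F8. They were taken by gene symbol from the deposited expression table of 29696 genes, and their m6A peaks were taken from the deposited peak lists. All 10 genes were listed, and positions are given on GRCh38. The lists held 20 of their peaks among 46039 for shALKBH5 cells and 23 among 44304 for shCtrl cells.

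A375 is a human melanoma cell line. It was infected with a lentivirus carrying a hairpin against the m6A demethylase ALKBH5 (shALKBH5, labelled as ALKBH5 knockdown) or a control hairpin (shCtrl, labelled as wild type), which the study calls Scramble, and its methods name a puromycin-resistance vector for the ALKBH5 hairpin. The methods place the harvest for RNA-Seq within days of infection, and give no harvest time for MeRIP-Seq. Each group had 3 input libraries and 3 libraries immunoprecipitated (IP) with an m6A antibody. Which of the study's ALKBH5 hairpins the sequenced cells carried is not given in the sources used here, and the study states that its experiments were repeated independently without saying how the sequenced replicates were grown, so p-values measure the spread between these libraries, which may be technical. Expression was given as FPKM, a read density scaled by transcript length and library size, without read counts, so the depth is unknown. The peak files hold 1 list for each group and no separate values for the 3 IP libraries. Values below stand in the order of replicates 1, 2 and 3.

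In dividing cells, D-type cyclins with CDK4 or CDK6 and then cyclin E with CDK2 phosphorylate RB1, which releases E2F factors from repression. E2F1 activates genes of DNA replication, and it also activates E2F7 and E2F8, atypical family members that repress the same genes later in the cycle. CDKN2C (p18) inhibits CDK4 and CDK6, CDKN1B (p27) mainly inhibits CDK2, and RBL1 (p107) is a relative of RB1 that holds repressive E2Fs. The pathway is a frequent site of lesions in melanoma.

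The knockdown and the identity of the cells were checked first. ALKBH5 averaged 18.2 ± 0.962 FPKM (SD, n = 3) in the controls and 3.48 ± 0.410 FPKM (SD, n = 3) after knockdown. FPKM summed to between 212760 and 223231 per library. Of the melanocyte lineage markers, SOX10 was high (181 and 184 FPKM in shALKBH5 and shCtrl) and S100B was at 82.1 and 32.9 FPKM, while MITF was at 1.26 and 0.777 FPKM, PMEL, TYR and DCT did not reach the expression filter and MLANA was not listed. Markers of endothelial cells summed to 0.242 to 0.249 FPKM in shALKBH5 and 0.298 to 0.388 FPKM in shCtrl libraries. Those of fibroblasts summed to 2.91 to 4.06 FPKM in shALKBH5 and 1.78 to 1.89 FPKM in shCtrl libraries, with LUM at 2.61 against 1.16 FPKM. Of the immune markers only CD68, a lysosomal membrane protein, was listed, at 14.8 to 17.2 FPKM in shCtrl and 38.1 to 41.9 FPKM in shALKBH5 libraries. Of the keratinocyte markers KRT10 and KRT14 were listed, with sums from 8.90 to 9.53 FPKM in shCtrl and from 10.7 to 11.5 FPKM in shALKBH5 libraries. KRT10 was higher (10.8 against 8.17 FPKM) and KRT14 lower (0.369 against 0.961 FPKM) in shALKBH5 cells. The part of these markers in the results below was not tested.

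Of the 10 genes, 6 fell and 2 rose in shALKBH5 cells, and CDK4 and RB1 did not pass the test. CDK6, E2F8, E2F1 and CDKN2C fell to between 24.7% and 33.1% of their control level, RBL1 to 47.1% and E2F7 to 74.8%. CDKN1B rose to 156% and CDK2 to 129% of control. The test was limma's, run on log2(FPKM + 0.1) over 12985 genes whose mean over the 6 libraries reached 0.5 FPKM, and a gene was called at a Benjamini-Hochberg adjusted p under 0.05. All 10 genes passed that filter, but RBL1 and E2F8 did so through their shCtrl libraries, their shALKBH5 means being below 0.5 FPKM. Calls were common, with 61.0% of all genes tested called, 26.2% lower and 34.7% higher in shALKBH5 cells, so that 8 of 10 called stands beside 61.0%, 6 of 10 lower beside 26.2% and 2 of 10 higher beside 34.7%. With each library rescaled by its median ratio, 3913 of all genes tested were lower and 3769 higher, against 3408 lower and 4509 higher without rescaling. In 8 of the 10 genes every library of one group lay above every library of the other, beside 67.0% of all genes tested. The median log2 fold change of the 10 genes was -0.67, against 0.09 over all genes tested. The 10 genes were chosen with earlier results of these data known, so their counts and median are descriptions and not a test. Since the RNA came from whole cultures, fewer cells in a given phase and less RNA per cell cannot be told apart.

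**Figure D1:**
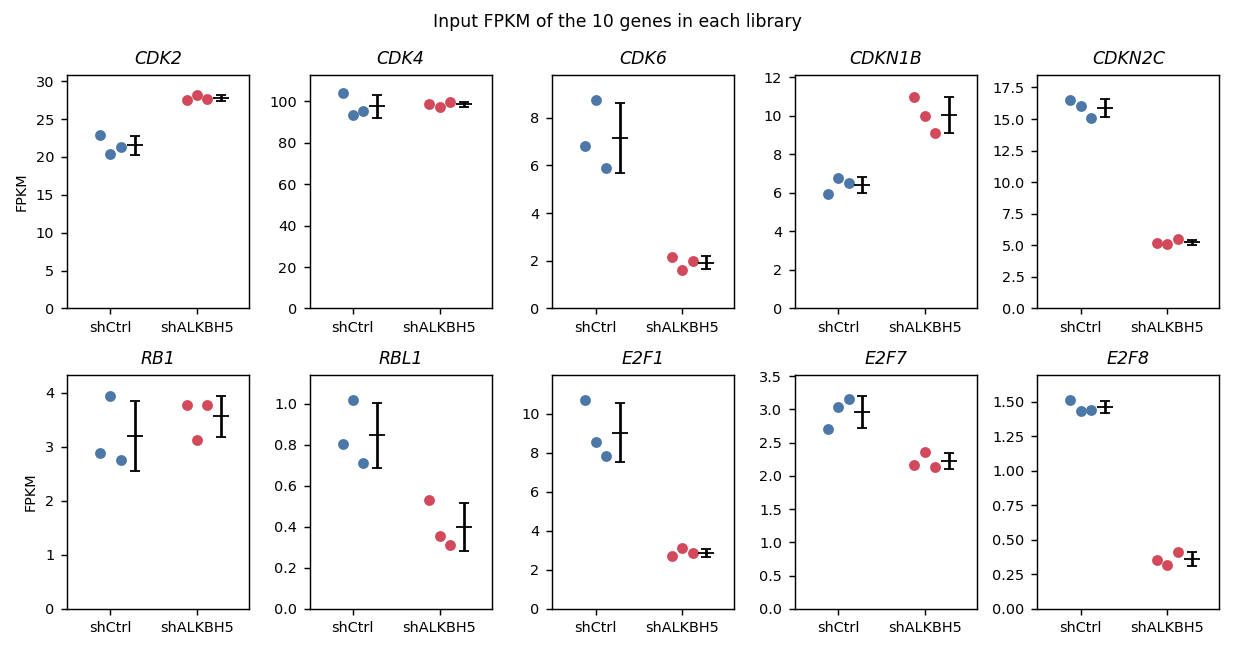
Input FPKM (vertical axes, linear and starting at 0) of the 10 genes in the 3 shCtrl (blue) and 3 shALKBH5 (red) libraries, with the mean and SD beside each group in black. All shALKBH5 points of CDK6, CDKN2C, RBL1, E2F1, E2F7 and E2F8 sit below the shCtrl points, those of CDK2 and CDKN1B above them, and those of CDK4 and RB1 among them.

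Among the kinases, CDK4 was by far the most abundant, and its level was close in the groups. CDK4 (ENSG00000135446, chromosome 12, 57747727 to 57756013, minus strand) measured 98.6, 97.4 and 99.7 FPKM after knockdown, compared with 104, 93.3 and 95.4 FPKM in the controls. The groups overlapped, and the log2 fold change was 0.01 (95% interval -0.10 to 0.13, adjusted p = 0.808 from limma). CDK6 (ENSG00000105810, chromosome 7, 92604921 to 92836573, minus strand), the other kinase that pairs with D-type cyclins, measured 2.14, 1.61 and 2.00 FPKM after knockdown, compared with 6.83, 8.73 and 5.88 FPKM in the controls. Every shALKBH5 value lay below every shCtrl value, and shCtrl replicate 2 was the highest. The log2 fold change of CDK6 was -1.84 (SE 0.160, adjusted p = 5.492e-05 from limma). Only 1.42% of all genes tested had a lower log2 fold change.

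CDK2 (ENSG00000123374, chromosome 12, 55966781 to 55972789, plus strand), the partner of cyclins E and A, measured 27.5, 28.2 and 27.6 FPKM after knockdown, compared with 22.9, 20.4 and 21.3 FPKM in the controls. The shALKBH5 values were all higher and lay close together. CDK2 rose by a log2 fold change of 0.37 (SE 0.0515, adjusted p = 6.110e-04 from limma), and by 0.29 when each library was rescaled by its median ratio. PMEL lies on the opposite strand across CDK2, at 0.166 to 0.69 FPKM over the 6 libraries, and whether the authors counted by strand is not given in the sources used here. CDK4 overlaps TSPAN31 (6.03 to 9.4 FPKM) and MARCHF9 (3.14 to 7.02 FPKM) on the opposite strand, and CDK6 overlaps CDK6-AS1 (1.65 to 3.72 FPKM) over 91 bp. On its own strand CDK6 overlaps AC000065 over 4119 bp, at no more than 0.0698 FPKM in any library. The 3 kinases thus had 3 different outcomes, with CDK6 lower, CDK2 higher and CDK4 not called.

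The inhibitors moved in opposite directions. CDKN1B (ENSG00000111276, chromosome 12, 12715058 to 12722369, plus strand) measured 11, 10.0 and 9.13 FPKM after knockdown, compared with 5.96, 6.78 and 6.53 FPKM in the controls. The knockdown libraries stood above the controls without exception, with a log2 fold change of 0.63 (SE 0.0823, adjusted p = 4.153e-04 from limma). AC008115 overlaps CDKN1B on the same strand over 549 bp, at 0.22 to 0.302 FPKM in shALKBH5 and 0.34 to 0.865 FPKM in shCtrl libraries. CDKN2C (ENSG00000123080, chromosome 1, 50960745 to 50974634, plus strand) measured 5.17, 5.11 and 5.47 FPKM after knockdown, compared with 16.5, 16 and 15.1 FPKM in the controls. The gap between the groups was wide beside the spread within them, and the log2 fold change was -1.58 (SE 0.0557, adjusted p = 1.010e-06 from limma). In shCtrl cells the CDKN2C level stood above the CDKN1B level, and in shALKBH5 cells below it, without overlap between the values of these genes in either group.

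Of the pocket proteins, RBL1 fell and RB1 was not called. RB1 (ENSG00000139687, chromosome 13, 48303744 to 48599436, plus strand) measured 3.78, 3.12 and 3.78 FPKM after knockdown, compared with 2.89, 3.94 and 2.76 FPKM in the controls. The highest value of RB1 was that of shCtrl replicate 2, which lay above all shALKBH5 values, while the other shCtrl values lay below them. Its log2 fold change was 0.16 (95% interval -0.18 to 0.51, adjusted p = 0.366 from limma). Without shCtrl replicate 2, the log2 fold change of RB1 was 0.32 and its adjusted p from limma 0.0367, so that this library decided the call. RB1 overlaps RCBTB2 (0.843 to 1.27 FPKM) and LPAR6 (0.167 to 0.632 FPKM) on the opposite strand.

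RBL1 (ENSG00000080839, chromosome 20, 36996349 to 37095997, minus strand) was low in both groups and measured 0.530, 0.354 and 0.310 FPKM after knockdown, compared with 0.806, 1.02 and 0.711 FPKM in the controls. The groups did not overlap, and the log2 fold change was -0.94 (SE 0.222, adjusted p = 0.00814 from limma). At this level the size depended on the constant added before the logarithm, with a log2 fold change of -0.40 when 1 was added.

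All 3 E2F genes fell. E2F1 (ENSG00000101412, chromosome 20, 33675477 to 33686385, minus strand) measured 2.68, 3.10 and 2.84 FPKM after knockdown, compared with 10.7, 8.56 and 7.84 FPKM in the controls. The lowest shCtrl value was well above the highest shALKBH5 value, and the log2 fold change was -1.61 (SE 0.119, adjusted p = 2.567e-05 from limma). E2F8 (ENSG00000129173, chromosome 11, 19224063 to 19241620, minus strand) measured 0.355, 0.316 and 0.413 FPKM after knockdown, compared with 1.51, 1.43 and 1.44 FPKM in the controls. The shCtrl values were close together and far above the shALKBH5 values. Its log2 fold change was -1.76 (SE 0.139, adjusted p = 3.424e-05 from limma), and -0.85 with 1 added before the logarithm.

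E2F7 (ENSG00000165891, chromosome 12, 77021248 to 77065569, minus strand), the other atypical E2F, had a smaller log2 fold change. It measured 2.17, 2.36 and 2.13 FPKM after knockdown, compared with 2.70, 3.04 and 3.16 FPKM in the controls. The groups lay close together but did not overlap. The log2 fold change of E2F7 was -0.40 (SE 0.0871, adjusted p = 0.00538 from limma).

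For these genes the sequence before the start of transcription was read from RefSeq (GRCh38.p14), which gave 11 windows for 8 of the 10 genes, each of 250 bases before and 50 bases after a start, and none for CDK2 and E2F8. The E2F motif was searched on both strands in 4 forms of 8 letters, TTTCCCGC, TTTCGCGC, TTTGCCGC and TTTGGCGC. It was found in the windows of E2F1 and RBL1, 2 of the 11, and in 3.31% of all 35116 windows. Each of these windows held a pair of matches within 30 bases. They are shown as the windows with a match, and whether a match bears on the change in expression was not tested. Capitals mark the matches in the transcribed strand, printed 5' to 3', of which the first in E2F1 reads on the opposite strand. The E2F1 stretch lies at chr20:33686393-33686422 and the RBL1 stretch at chr20:37096000-37096029, both on the minus strand, with the matches between 33 and 9 bases before the start.
E2F1: tttcGCGGCAAAaaggaTTTGGCGCgtaaa
RBL1: gcagatTTTCGCGCgcTTTGGCGCaggtgg

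The last 7 letters of the same forms, which every match above also holds, were found in 13.0% of all windows and in 4 of the 11 windows, adding CDKN2C and E2F7. The stretches below show the match nearest to the start in each of these genes, again in capitals. That of CDKN2C lies at chr1:50968661-50968690 on the plus strand, and that of E2F7, where the capitals read on the opposite strand, at chr12:77065684-77065713 on the minus strand. The windows of CDK4, CDK6, CDKN1B and RB1 held none of these letters on either strand. A match is a description of letters and was not tested for binding.
CDKN2C: ggcgcccggccTTCCCGCtcccgcggcgct
E2F7: cgcggctcggaGCGCCAAgactccgagggg

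FPKM is scaled by transcript length, so the levels can be ordered. In shCtrl cells the order of mean FPKM was CDK4 (97.7), CDK2 (21.5), CDKN2C (15.9), E2F1 (9.04), CDK6 (7.15), CDKN1B (6.42), RB1 (3.20), E2F7 (2.97), E2F8 (1.46) and RBL1 (0.845). E2F1 and CDK6, CDK6 and CDKN1B, and RB1 and E2F7 overlapped in their values, and the other neighbours did not. In shALKBH5 cells CDKN1B (10.0) stood after CDK2 (27.8), followed by CDKN2C (5.25), RB1 (3.56), E2F1 (2.87), E2F7 (2.22), CDK6 (1.91), RBL1 (0.398) and E2F8 (0.361). Here the overlapping neighbours were E2F7 with CDK6 and RBL1 with E2F8.

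A ratio between 2 genes of the same library depends little on how that library was scaled. The log2 ratio of (FPKM + 0.1) was therefore compared between the groups for 7 pairs, with an exact permutation test that cannot give a two-sided p below 0.1 with 3 libraries against 3.

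The ratio of CDK6 to CDK4 was -5.46, -5.83 and -5.57 on the log2 scale in shALKBH5 replicates 1, 2 and 3 and -3.91, -3.40 and -4.00 in the shCtrl replicates. The mean difference was -1.85 (SE 0.216, exact permutation p = 0.1, adjusted over the 7 pairs 0.175). The ratio of CDK2 to CDK4 was tight within groups, at -1.84, -1.78 and -1.85 against -2.18, -2.19 and -2.16, a difference of 0.35 (SE 0.0225, exact permutation p = 0.1, adjusted 0.175). Relative to CDK4 in the same library, CDK6 was thus lower and CDK2 higher in each shALKBH5 library than in any shCtrl library.

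The ratio of RBL1 to RB1 was lower in each shALKBH5 library, moving from -1.72, -1.85 and -1.82 in shCtrl to -2.62, -2.83 and -3.24 in shALKBH5 replicates 1, 2 and 3, a difference of -1.10 (SE 0.187, exact permutation p = 0.1, adjusted 0.175). With 1 added before the logarithm in place of 0.1, this difference was -0.53. The ratio of E2F7 to E2F1 was higher in shALKBH5 cells, at -0.29, -0.38 and -0.40 against -1.95, -1.47 and -1.28, a difference of 1.21 (SE 0.201, exact permutation p = 0.1, adjusted 0.175). In shALKBH5 cells E2F7 was at 0.750 to 0.811 of the E2F1 level, and in shCtrl cells at 0.252 to 0.403.

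The other 3 pairs overlapped between the groups. E2F8 to E2F1 differed by -0.15 (SE 0.171, exact permutation p = 0.4, adjusted 0.4), CDKN1B to CDK2 by 0.27 (SE 0.131, exact permutation p = 0.2, adjusted 0.28), and CDKN2C to CDK6 by 0.26 (SE 0.183, exact permutation p = 0.3, adjusted 0.35). These tests cannot show that the ratios were alike, and the difference for E2F8 to E2F1 changed sign to 0.51 with 1 added before the logarithm.

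**Figure D2:**
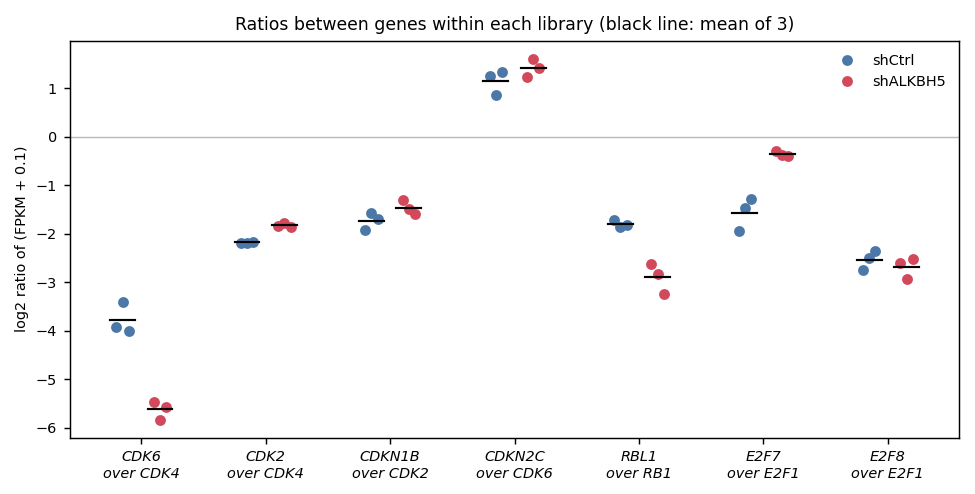
The log2 ratio of (FPKM + 0.1) between 2 genes of the same library (vertical axis) for 7 pairs, with shCtrl libraries in blue, shALKBH5 libraries in red and the mean of 3 as a black line. The groups are apart for CDK6 over CDK4, CDK2 over CDK4, RBL1 over RB1 and E2F7 over E2F1, and overlap for the other 3 pairs.

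Around these genes, 53 further genes of the G1/S machinery were taken in 6 lists, of which 47 were tested. Of these, 33 fell, 8 rose and 6 were not called, with a median log2 fold change of -0.76 against 0.09 over all genes tested. These counts and those of each list below stand beside 26.2% lower and 34.7% higher over all genes tested. The lists were chosen with earlier results of these data known, so the counts describe them and are not a test. CCNE2, CDKN2A, CDKN2B, LIN9 and LIN54 did not reach the filter, and CCND2 was not listed.

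Of the 4 cyclins of G1 and S phase tested, 3 fell and CCND3 was not called. Cyclin A2 (CCNA2), which drives S phase with CDK2, fell from 12.9 ± 1.42 to 3.61 ± 0.168 FPKM (SD, n = 3), which is a log2 difference of -1.80 (adjusted p = 3.508e-06 from limma). Cyclin E1 (CCNE1), the activator of CDK2, fell from 9.53 ± 0.253 to 4.55 ± 0.113 FPKM (SD, n = 3), which is a log2 difference of -1.05 (adjusted p = 3.895e-06 from limma). Cyclin D1 (CCND1), the partner of CDK4 and CDK6, was abundant and moved little, from 209 ± 6.87 to 191 ± 5.60 FPKM (SD, n = 3), which is a log2 difference of -0.13 (adjusted p = 0.0249 from limma). Its call was lost without shALKBH5 replicate 1, without shALKBH5 replicate 3 or without shCtrl replicate 3, with adjusted p-values from limma of 0.0798, 0.0961 and 0.0894. It was also lost with no filter on low values (0.0687), with no trend in the variance (0.0846) and with the replicate number as a block (0.0611). With each library rescaled by its median ratio, the log2 fold change was -0.21 (adjusted p = 0.00543 from limma).

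Of the other inhibitors tested, CDKN2D (p19) fell from 6.12 ± 0.359 to 3.09 ± 0.293 FPKM (SD, n = 3) and CDKN1C (p57) from 6.92 ± 0.143 to 3.90 ± 0.306 FPKM (SD, n = 3), with log2 fold changes of -0.97 and -0.81. CDKN1A (p21), the most abundant inhibitor measured, rose from 227 ± 16.7 to 279 ± 3.45 FPKM (SD, n = 3), which is a log2 difference of 0.30 (adjusted p = 0.00224 from limma). CDKN1A, CDKN1B and CDKN1C belong to one family that acts on CDK2, and of these CDKN1C was lower while CDKN1A and CDKN1B were higher.

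Among 9 genes that activate CDKs or turn over p27, 3 fell, 3 rose and 3 were not called. Of those that rose, SKP1 was not called (adjusted p = 0.0622 from limma) when each library was rescaled by its median ratio. SKP2, the F-box protein that marks p27 for degradation, fell from 9.27 ± 0.591 to 3.56 ± 0.344 FPKM (SD, n = 3), which is a log2 difference of -1.36. CKS1B, its cofactor in that step, fell from 38.4 ± 2.12 to 15.0 ± 0.573 FPKM (SD, n = 3), which is a log2 difference of -1.35. CDC25A, a phosphatase that activates CDK2, had a log2 fold change of -0.96, and CCNH, the cyclin of the CDK-activating kinase, one of 0.73. The adjusted p-values from limma of these 4 genes ran from 1.642e-06 to 9.020e-05.

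Of 8 other pocket protein, E2F and DP genes, 3 fell, 4 rose and E2F3 was not called. E2F2, an activator like E2F1, fell from 2.05 ± 0.0274 to 0.391 ± 0.0871 FPKM (SD, n = 3), which is a log2 difference of -2.14 (adjusted p = 2.001e-05 from limma). E2F2 passed the filter through its shCtrl libraries, and its log2 fold change was -1.13 with 1 added before the logarithm. E2F4, which represses with pocket proteins in resting cells, rose from 30.2 ± 0.778 to 45.5 ± 1.04 FPKM (SD, n = 3), which is a log2 difference of 0.59 (adjusted p = 1.509e-05 from limma). E2F6, a repressor that does not bind pocket proteins, rose by a log2 fold change of 0.47, and TFDP1, the common partner of E2Fs, had one of -0.44. The other calls of this list were weaker. RBL2 (p130) had a log2 fold change of 0.32 (adjusted p = 0.0212 from limma), E2F5 one of 0.42 (adjusted p = 0.0286 from limma) and TFDP2 one of -0.31 (adjusted p = 0.0499 from limma). Leaving out single libraries ended each of these calls. For RBL2 these were shALKBH5 replicates 1 and 2 and shCtrl replicate 3 (adjusted p from limma of 0.0604 to 0.0677), for E2F5 shALKBH5 replicates 2 and 3 and shCtrl replicate 1 (0.0579 to 0.0904), and for TFDP2 any library but shCtrl replicate 1 (0.0863 to 0.146). With no filter on low values all 3 calls were lost as well, at adjusted p-values from limma of 0.0534, 0.0699 and 0.0841. That of TFDP2 was also lost at a filter of 1 FPKM (0.0573) and with the replicate number as a block (0.114).

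MuvB is a complex that represses cell cycle genes with RBL1 or RBL2 and E2F4, and activates later ones with MYBL2 and FOXM1. Of 5 genes tested in this list, 4 fell and LIN37 was not called. FOXM1 fell from 45.6 ± 2.31 to 9.62 ± 0.134 FPKM (SD, n = 3) and MYBL2 from 45.1 ± 2.60 to 11.9 ± 0.435 FPKM (SD, n = 3), log2 fold changes of -2.23 and -1.92. The core genes LIN52 and RBBP4 moved less, with log2 fold changes of -0.64 and -0.30.

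All 18 genes listed as E2F targets fell, with a median log2 fold change of -1.42 and a range from -1.80 to -0.55. TK1, the thymidine kinase of S phase, had a log2 fold change of -1.80, and RRM2, a subunit of ribonucleotide reductase, fell from 22.9 ± 0.422 to 6.99 ± 0.209 FPKM (SD, n = 3). MCM5 and MCM6, subunits of the replicative helicase, had log2 fold changes of -1.67 and -1.67. The proliferation marker MKI67 fell from 10.8 ± 1.97 to 2.88 ± 0.302 FPKM (SD, n = 3), which is a log2 difference of -1.86. The log2 fold changes of E2F1, E2F8, CDKN2C and RBL1 lay within the range of these genes, and those of CDK6, with -1.84, and E2F7, with -0.40, outside it. With 1 added before the logarithm, that of CDK6 was -1.47 and that of RBL1 -0.40.

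**Figure D3:**
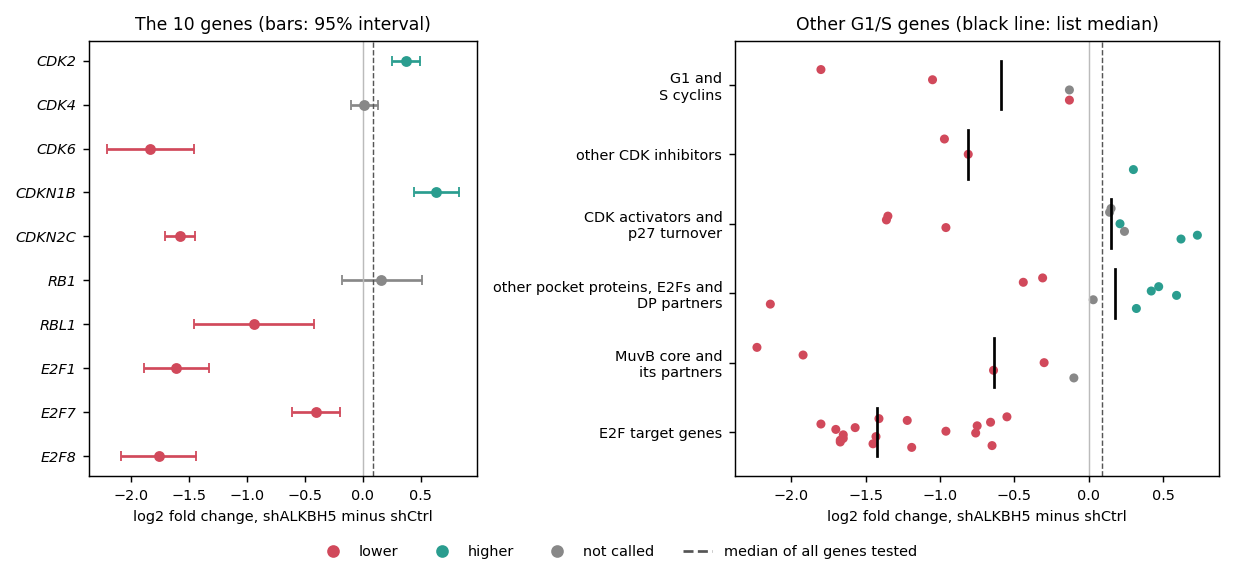
Log2 fold change between shALKBH5 and shCtrl input libraries (horizontal axes), on the left for the 10 genes with 95% intervals from limma and on the right for each tested gene of the 6 lists, with red for lower, green for higher and grey for not called. The black lines give list medians from -1.42 for E2F targets to 0.18 for pocket proteins, E2Fs and DP partners, and the dashed line the median of 0.09 over all genes tested.

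For m6A, each peak has a fold enrichment of IP over input from the authors' peak caller, with no replicates, so no test of a change was possible here. The shALKBH5 list held peaks in all 10 genes and the shCtrl list in 9, with none in RB1. Of the 20 shALKBH5 peaks, 10 were annotated to the 3'UTR, 6 to the 5'UTR and 4 to coding exons. Of the 23 shCtrl peaks, 10 were in the 3'UTR, 7 in the 5'UTR, 5 in coding exons and 1 in an intron. The median fold enrichment was 2.91 and 2.81 in shALKBH5 and shCtrl, below the medians of 5.31 and 5.25 over all peaks of these lists. A fold enrichment of at least 2 with an FDR of at most 0.01 was reached by 7 of the 20 shALKBH5 peaks, beside 66.6% of all peaks of that list, and by 15 of the 23 shCtrl peaks, beside 68.4%.

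Of the shALKBH5 peaks of these genes, 13 (65.0%) shared 1 bp or more, on the same strand, with a peak of the shCtrl list, and of the shCtrl peaks 14 (60.9%) overlapped a shALKBH5 peak. Over all genes these shares were 78.1% and 81.3%. The overlaps formed 14 pairs. Fold enrichment was lower in the shALKBH5 list in 9 of the 14 pairs, and in 52.7% of all 46422 overlapping pairs. It differed by more than 2-fold in 4 pairs, beside 25.1% of all pairs. These were a CDKN2C pair, both E2F8 pairs and the RBL1 pair. The E2F8 pairs shared 3.11% and 8.52% of the shALKBH5 peak, which were 50.2% and 100% of the shCtrl peaks, and the RBL1 pair 1 bp. With a reciprocal overlap of 50% the CDKN2C pair alone was left past 2-fold, 1 of 10 pairs.

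Both inhibitors had a long peak annotated to the 3'UTR in each list. The CDKN1B peak spanned 12717721 to 12721445 with a fold enrichment of 4.59 in shALKBH5 and 12717631 to 12721504 with 6.18 in shCtrl cells. The 3'UTR peak of CDKN2C spanned 50968713 to 50974365 with 5.61 in shALKBH5 and 50968594 to 50974604 with 7.6 in shCtrl cells. Both genes thus had a value lower by 1.35-fold in the shALKBH5 list, while their input levels had moved in opposite directions. The lists give the outer ends of a peak, so a long span can include introns and parts outside the annotated region. The CDKN2C spans of both lists also held a RefSeq start at 50970245, so their values are not of the 3'UTR alone.

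CDKN2C also had a peak at the 5' end of the gene, from 50960745 to 50968206 with a fold enrichment of 4.9 in shALKBH5 and from 50960745 to 50968176 with 11.5 in shCtrl cells, 2.35-fold lower in the shALKBH5 list. A further shCtrl peak of CDKN2C, from 50968295 to 50968504 with a fold enrichment of 10.2, overlapped no shALKBH5 peak. The input level of CDKN2C in shALKBH5 cells was 33.1% of control, and whether this bears on the peak values was not tested.

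E2F8 had 5 peaks in the shCtrl list and 1 in the shALKBH5 list. The shCtrl peaks ran over the gene from a 5'UTR peak (19240800 to 19241560, fold enrichment 8.94) through coding exon peaks (19237437 to 19237970 with 1.88, 19229461 to 19229791 with 4.82, and 19225787 to 19226027 with 3.49) to a 3'UTR peak (19224482 to 19225252 with 4.11). The single shALKBH5 peak spanned 19225907 to 19229791 with a fold enrichment of 17.1, the highest of these genes. It overlapped 2 of the 5, holding all of the shCtrl peak from 19229461 to 19229791 and 50.2% of that from 19225787 to 19226027. E2F8 in shALKBH5 cells was at 0.361 FPKM, 24.7% of control, and the part of this low input in the fewer peaks and in the high ratio was not tested.

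For E2F1 the shCtrl list held 3 peaks. The 3'UTR peak at the end of the gene, 33675477 to 33676075 with a fold enrichment of 2.81, had a shorter counterpart in the shALKBH5 list, 33675477 to 33675686 with 2.57. A 3'UTR peak from 33676672 to 33676851 with 1.84 and a 5'UTR peak from 33686236 to 33686385 with 1.57 had none, and the latter had an FDR above 0.05. E2F7 kept pairs of coding exon peaks, at 2.1 against 1.49 and at 2.6 against 1.62 in shCtrl and shALKBH5 cells. A 3'UTR peak of E2F7, 77023135 to 77023405 with 2.92, was in the shALKBH5 list only, an intron peak, 77045793 to 77046003 with 3.83, in the shCtrl list only, and a coding exon peak, 77046123 to 77046242 with 1.44, in the shALKBH5 list only. The FDR of these last 2 was above 0.05.

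Of the kinases, CDK6 had a 5'UTR peak in both lists, 92833201 to 92836573 with 4.46 in shALKBH5 and 92833141 to 92835183 with 5.65 in shCtrl cells, and a 3'UTR peak with 2.9 and 2.44. A second 3'UTR peak of CDK6 at the end of the gene, 92604921 to 92605161 with 4.9, was only in the shALKBH5 list, with an FDR above 0.05. CDK4 had a peak at 57752202 to 57752380 in both lists, with a fold enrichment of 1.76 in shALKBH5 and 2.17 in shCtrl cells, and another with 1.85 and 1.67. In addition, CDK4 had a 5'UTR peak of 60 bp, 57755954 to 57756013 with 11, in the shALKBH5 list only, and a 3'UTR peak, 57748233 to 57748292 with 1.48, in the shCtrl list only.

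CDK2 had a shared 3'UTR peak with 1.18 in shALKBH5 and 1.19 in shCtrl cells, and a further peak, 55967678 to 55967797 with 2.77, in the shCtrl list only. A short 3'UTR peak at the end of CDKN1B, 12722250 to 12722369 with 1.6, was in the shALKBH5 list only. RB1 had 2 peaks, in the shALKBH5 list only, 48303834 to 48303953 with 1.38 and 48481756 to 48599436 with 9.8, both with an FDR above 0.05. RBL1 had 1 peak per list in its 3'UTR, 36996678 to 36996918 with 7.35 and an FDR above 0.05 in shALKBH5 and 36996469 to 36996678 with 3.0 in shCtrl cells, which shared a single base, 1 bp.

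**Figure D4:**
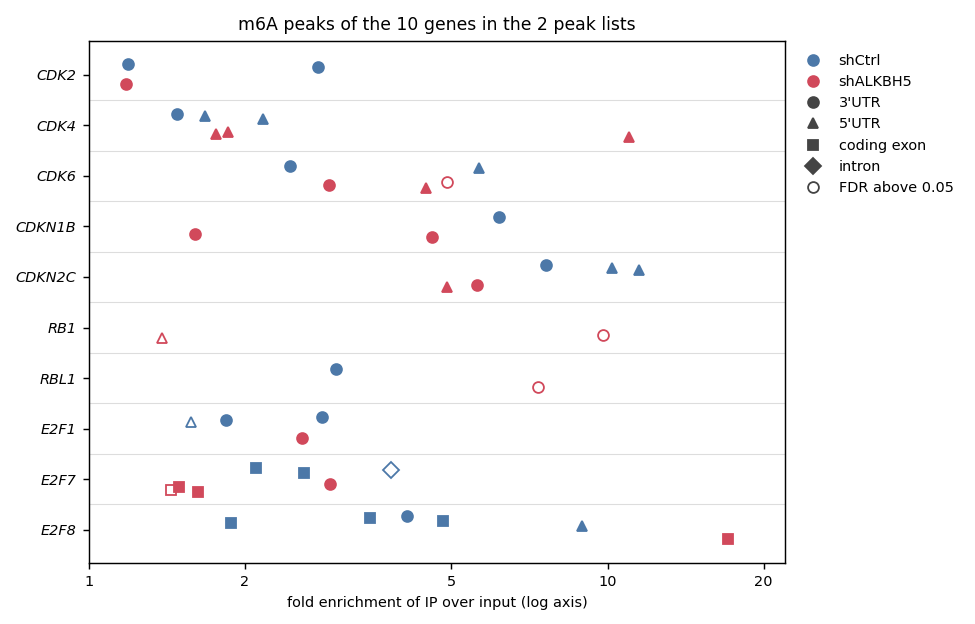
Fold enrichment of IP over input (horizontal axis, log scale) of each m6A peak of the 10 genes in the shCtrl list (blue) and the shALKBH5 list (red), with shapes for the annotated region and open symbols for an FDR above 0.05. E2F8 has 5 blue and 1 red symbol, at 17.1, RB1 has only open red symbols, and CDKN2C has its blue symbols at 7.6 to 11.5 and its red symbols at 4.9 and 5.61.

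Methylated adenosines usually lie in the motif named DRACH, of which GGACT is a common form. Where a RefSeq start lay inside a peak, the first 50 transcribed bases were searched on the transcribed strand. Over all 35116 RefSeq starts, inside a peak or not, the first 50 bases held the motif in 49.6%. The stretches below lie inside 5'UTR peaks and show what these contain at the start of the transcript, with matches in capitals and with no evidence for which adenosine was methylated. The CDKN2C stretch, chr1:50960752-50960781 on the plus strand, lies in the peaks of both lists. That of CDK6, chr7:92836529-92836558 on the minus strand, lies in the shALKBH5 peak only, and that of E2F1, chr20:33686356-33686385 on the minus strand, in the shCtrl peak with an FDR above 0.05. Further starts of CDKN2C also held a match, and a second start of CDK6 and the one of CDK4 held none.
CDKN2C: aagTAACCAGACTgccatggtAGACAtggg
CDK6: ccgcgaggccgcGGACAcgtgcggagagcc
E2F1: gGGACTttgcaggcagcggcggccgggggc

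The deposited table that compares the peaks of the groups lists 6513 peaks, 7 of them in 6 of these genes. They were in the 5'UTR of CDK4 and CDK6, in the 3'UTR of CDKN1B, CDKN2C, E2F1 and E2F7, and in a coding exon of E2F7. CDK2, RB1, RBL1 and E2F8 had no peak in it. The table's fold changes and p-values are the authors' own comparison and were not used here.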

How the data were processed

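Input RNA and m6A IP libraries of A375 cells were assigned to groups from their titles, 3 per group and kind. The authors deposited FPKM per input library, and fold changes and p-values of their own (by edgeR, per the paper), which were not used. The authors' 2 peak lists give a fold enrichment ratio of IP over input and a log10 p and FDR, treated as a score because some are infinite. The deposited table of compared peaks was used for positions only. Aligner, counter, peak caller and pooling of replicates are not given in the sources used here. The labels name the build mm10, but all 15678 protein-coding genes matched by symbol overlapped their RefSeq position on GRCh38.p14, so positions are given on GRCh38. Peak starts were changed to count from 1.

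FPKM was tested with limma 3.58.1 in R 4.3.3 (eBayes with trend) after adding 0.1 to each FPKM and taking log2, over 12985 genes averaging 0.5 FPKM or more, two-sided, with Benjamini-Hochberg adjustment over all of them. A fold change on this scale understates the change of low genes. Low FPKM values showed no steps (the most common ratio of replicates 1 and 2 made up 0.452% and 0.351% of them), so depth is unknown and 3 libraries per group limit the precision. Peaks were overlapped with bedtools 2.31.1. Other steps used Python 3.11.15.

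The members and lists were chosen with earlier results of these data known. Named genes are the 10 members, ALKBH5, MKI67, up to 4 called genes per list by size of change, and, by name only, list genes under the filter. Outside that rule, RBL2, E2F5, TFDP2, SKP1, overlapping genes, markers and the list genes that were not called were named after their values were seen. The alternatives tried were median-ratio scaling, adding 1 or 0.01 before the logarithm, dropping the filter or raising it to 1 FPKM, a replicate block, no trend, each library left out, stricter peaks, a reciprocal overlap of 50% and a peak change past 1.5-fold.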

Additional observations from a re-analysis of the deposited data

How the results depend on the processing

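Direction and call were kept under every alternative in which they were tested for 8 of the 10 genes, the exceptions being the direction of CDK4 and the call of RB1. At a filter of 1 FPKM, RBL1 and E2F8 were not tested, which left 6 of the 10 genes called, 4 of them lower. Over all genes, 7137 of the 10889 tested at that filter were called, 3053 of them lower. The log2 fold change of CDK4, which was not called, changed sign to -0.06 with each library rescaled by its median ratio, and lay between -0.02 and 0.06 when single libraries were left out. Rescaling moved the median log2 fold change over all genes tested by -0.074. The difference of the log2 ratio of E2F8 to E2F1 was 0.51 with a pseudocount of 1. The groups were apart for 4 of the 7 ratios, and for 4 or 5 with another pseudocount or a library left out. With libraries of the same replicate number compared, the differences had the same sign for 5 ratios. A stricter peak threshold (FDR up to 0.01, fold enrichment from 2) left 7 shALKBH5 and 15 shCtrl peaks in these genes, and by construction fewer overlaps, with 6 of the 7 and 7 of the 15 overlapping. With a reciprocal overlap of 50%, 10 pairs were left and 1 differed by more than 2-fold, the CDKN2C 5'UTR pair. No pairing of the libraries by replicate number was seen. Deviations of same-numbered libraries from their group means correlated at 0.018, -0.046 and 0.059, which cannot exclude a pairing by design. With the replicate number as a block, the same 8 of the 10 genes were called, 7271 genes were called in all, against 7917 without the block, and CCND1 had an adjusted p of 0.0611 from limma and TFDP2 one of 0.114. Low FPKM of E2F8 and RBL1 limits the precision of their fold changes.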
